A study of Homo sapiens with 6 samples.

Results

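The TRiC chaperonin, also called CCT, was described through the 8 genes that encode its subunits in human somatic cells, TCP1, CCT2, CCT3, CCT4, CCT5, CCT6A, CCT7 and CCT8. They were taken by name from the 60708 genes listed in the count tables, and all 8 passed the minimum of 200 summed counts in the mimic libraries, as did 13078 genes in all. MDA-MB-231, an established human triple-negative breast cancer cell line of mesenchymal type, received a mimic of miR-99b-5p or a scrambled control, each at 25 nM, and was harvested 18 hours later. RNA bound to Argonaute-2 (AGO2), the protein that holds microRNAs against their target mRNAs, was pulled down with an antibody (the AGO2-IP, here IP), and the RNA that the beads did not retain was kept as the flow-through (FT). There were 6 libraries, an IP and an FT for each of 2 mimic replicates and for 1 control. All came from this cell line, so they describe 1 line only. The fraction of each control library comes from its label, while the study's supplement lists the pair as control replicates and gives no fraction. Every control ratio of IP over FT below rests on the labels, and a difference between fractions cannot be told apart here from one between replicates. An IgG pull-down was not analysed here.

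TRiC is a double-ring complex in the cytosol. New proteins enter its cavity, and the ring closes over them through an ATP-driven lid built into the subunits while they fold. Actin and the tubulins depend on it, as do several proteins with WD40 propellers. Each subunit is a different paralog with a fixed place in the ring, and the proteins are needed in equal amounts. TCP1, CCT2, CCT4 and CCT5 sit together on the side that binds and hydrolyses ATP strongly, and CCT3, CCT6A, CCT7 and CCT8 form the side that uses ATP weakly. Prefoldin hands unfolded actin and tubulin to the complex, and phosducin-like proteins act with it as cofactors.

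The mimic carries the sequence of miR-99b-5p, whose mature sequence lies at chr19:51692618-51692639 on the plus strand of GRCh38. It is shown with the other mature human miRNAs of the RefSeq table that have the same seed, because the seed is what pairs with a target mRNA. Capitals mark the seed, bases 2 to 8, and each sequence is 22 bases long.
hsa-miR-99b-5p: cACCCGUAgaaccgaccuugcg
hsa-miR-99a-5p: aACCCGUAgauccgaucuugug
hsa-miR-100-5p: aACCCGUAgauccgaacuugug
The letters ACGGGT, the DNA form of the complement of bases 2 to 7, were searched in the sense strand of the GENCODE 44 transcripts. They occurred in the canonical transcript of 1 of the 8 subunit genes, CCT3, once and within the coding sequence. That match lies at chr1:156310636-156310641 on the minus strand, in exon 13 of 14, and is followed by an A (a 7mer-A1 match). It is printed with the bases around it and the match in capitals.
CCT3: gtaaatggtgagACGGGTactttggtggac
Of all 104 annotated transcripts of the 8 genes, 6 held the letters, and all 6 belonged to CCT3. The other 7 canonical subunit transcripts had no match along their whole length. Among 20046 canonical protein-coding transcripts, 14.9% held the letters somewhere, and 5.76% of 19550 had them in the 3′ UTR. A letter match of this kind describes the sequence and does not show binding.

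The mimic libraries held between 38022779 and 48544756 counts on genes, and the control libraries held 7772149 (FT) and 8076375 (IP). In the controls 92.3% and 95.03% of the read pairs were on no single gene, against 21.4% to 47.2% in the mimic libraries. The share of mitochondrially encoded genes was 43.4% in the control FT and 3.48% in the control IP, and no mimic library exceeded 0.125%. The mimic FT libraries stood apart from each other, with an SD over genes of 1.44 for their log2 difference, against 0.84 for the IP libraries. That difference followed GC content over 11747 protein-coding genes (Spearman's rho -0.755, a description, since genes share the libraries). The line's marker genes VIM, CD44, AXL, MSN and EGFR had at least 59.0 CPM (counts scaled to a library total of 1000000 gene counts) in every library. ESR1 and PGR stayed under 1 CPM, CDH1 reached at most 3.96, EPCAM 11.8 and ERBB2 172, so ERBB2 was not absent. The AGO2 mRNA had a log2 fold change of 0.63 between the mimic fractions, which did not pass the test.

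The subunit mRNAs together were a larger part of the IP than of the FT in both transfections. They made up 0.639% and 0.466% of the gene counts in the mimic IP libraries, and 0.199% and 0.131% in the mimic FT libraries. In the controls they made up 0.273% of the IP and 0.0701% of the FT. Mitochondrially encoded genes took 43.4% of the control FT counts and 3.48% of the control IP counts, so the control shares are not on an equal base. The 95% Wilson interval of the lowest share ran from 0.0682% to 0.0720%, and the highest from 0.636% to 0.641%, which covers counting error only. The same ordering held for each gene in the mimic. In all 8 the pair of IP libraries lay above the pair of FT libraries, which was so for 28.1% of the genes tested. The counts ran from 303 for CCT2 in the control FT to 78381 for CCT6A in mimic IP replicate 1.

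**Figure D1:**
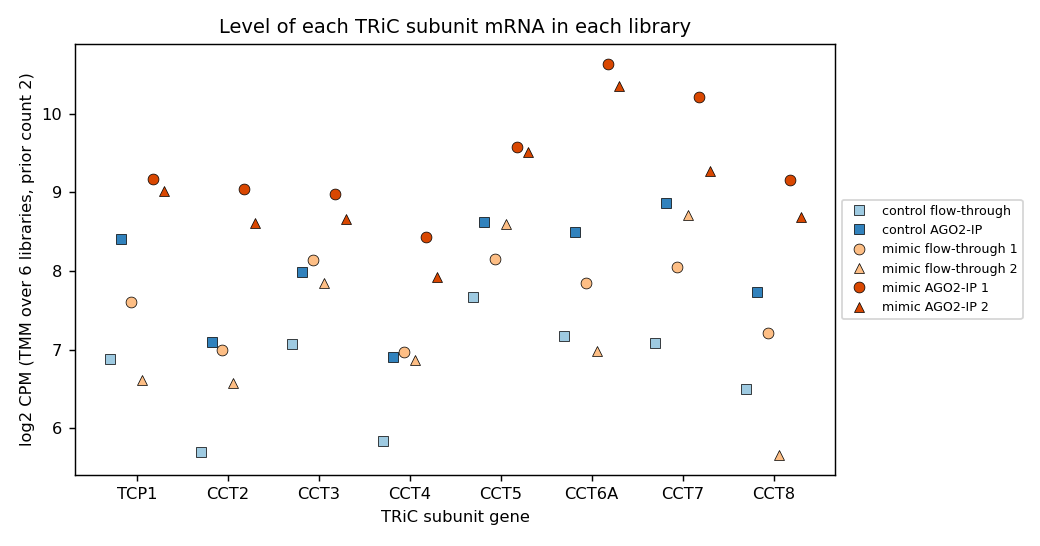
Level of each TRiC subunit mRNA in the 6 libraries, as log2 CPM after TMM normalization over all libraries with a prior count of 2; squares are control libraries, circles and triangles are mimic replicates 1 and 2, and darker symbols are IP. For every gene the dark orange symbols lie above the light orange ones, and the dark blue square lies above the light blue one; CCT8 in mimic FT replicate 2 is the lowest point of all.

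Among the subunits of the strongly ATP-using side, TCP1 (the founding member, found in the mouse t-complex; ENSG00000120438.12, chr6:159778498-159789703, minus strand) had 606 and 524 CPM in the mimic IP. Its mimic FT levels were 233 and 83.8 CPM, and the control libraries had 406 CPM in the IP and 88.5 in the FT. The control IP thus lay between the mimic fractions, and the control FT was close to the lower of the mimic FT libraries. TCP1 had a log2 fold change of 1.89 ± 0.62 (SE, n = 2 against 2) between the mimic fractions, with an adjusted p of 0.117 in edgeR's quasi-likelihood test.

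CCT2 (ENSG00000166226.13, chr12:69585426-69601570, plus strand), a subunit also described as a receptor for the autophagy of protein aggregates, had 555 and 394 CPM in the mimic IP. It had 153 and 81.9 CPM in the mimic FT, 164 in the control IP and 39.0 in the control FT. All 4 mimic differences lay within 1.60 and 2.44 on the log2 scale. The fitted log2 fold change was 2.03 ± 0.60 (SE), with an adjusted p of 0.0961 in edgeR.

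CCT4 (ENSG00000115484.15, chr2:61868085-61888671, minus strand) had 363 and 244 CPM in the mimic IP and 150 and 99.7 CPM in the mimic FT. Its control levels were 144 CPM in the IP and 42.7 in the FT, so the control IP lay within the range of the mimic FT libraries. CCT5 (ENSG00000150753.12, chr5:10249929-10266389, plus strand), the subunit mutated in a hereditary sensory neuropathy with spastic paraplegia, had 803 and 738 CPM in the mimic IP. It had 340 and 333 CPM in the mimic FT, 471 in the control IP and 152 in the control FT. The CCT5 replicates lay close together in CPM in both fractions, and after TMM replicate 1 minus 2 was 0.06 in the IP and -0.46 in the FT on the log2 scale. The log2 fold changes were 1.27 ± 0.59 for CCT4 (adjusted p = 0.216, edgeR) and 1.14 ± 0.58 for CCT5 (adjusted p = 0.250).

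On the weakly ATP-using side, CCT6A (ENSG00000146731.11, chr7:56051685-56063989, plus strand), whose paralog CCT6B takes its place in testis, had the widest gap between the fractions. Its counts were 78381 and 50047 in the mimic IP against 13017 and 5267 in the mimic FT, or 1677 and 1316 CPM against 277 and 108. The controls had 432 CPM in the IP and 108 in the FT. The mimic IP libraries stood above the other 4, and the control IP was the next highest. CCT6A had a log2 fold change of 3.01 ± 0.64 (SE), an 8.03-fold difference, with an unadjusted p of 0.000588 and an adjusted p of 0.0543 in edgeR. CCT6B was far lower, with 0.515 to 2.63 CPM.

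CCT8 (ENSG00000156261.13, chr21:29055805-29073797, minus strand), the neighbour of CCT6A in the ring, had 598 and 415 CPM in the mimic IP. It had 177 and 43.2 CPM in the mimic FT, 254 in the control IP and 67.8 in the control FT. CCT8 had the largest gap of any member between FT replicates, 1.54 on the log2 scale, with replicate 2 below the control. Its log2 fold change was 2.29 ± 0.69 (SE), with an adjusted p of 0.0980 in edgeR.

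CCT7 (ENSG00000135624.16, chr2:73233420-73253021, plus strand) had 1250 and 623 CPM in the mimic IP and 318 and 360 CPM in the mimic FT. The controls had 560 CPM in the IP and 101 in the FT. CCT7 differed most between IP replicates, by 0.94 on the log2 scale, and mimic IP replicate 2 was close to the control IP. CCT3 (ENSG00000163468.15, chr1:156308968-156367873, minus strand), the gene with the seed match printed above, had 531 and 409 CPM in the mimic IP and 339 and 197 CPM in the mimic FT. Its controls had 302 CPM in the IP and 100 in the FT. CCT3 had the smallest log2 fold change of the 8, 0.82 ± 0.57 (SE, adjusted p = 0.398, edgeR), against 1.38 ± 0.62 for CCT7 (adjusted p = 0.204).

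With both thresholds (a log2 fold change of 1 or more and an adjusted p no higher than 0.05), edgeR called 0 of the 8 genes enriched in the mimic IP and 0 depleted. Over all genes tested it called 0.245% enriched and 0.413% depleted. Without the adjustment, 5 of the 8 (TCP1, CCT2, CCT6A, CCT7 and CCT8) had p under 0.05 and were higher in the IP, against 10.6% of all genes tested. A log2 fold change of at least 1 was reached by 7 of the 8, all but CCT3, against 20.0% of all genes tested. The median over the 8 genes was 1.64 and the median over all genes tested was -0.11. When the replicate number entered the fit as a block, 3 of the 8 were called enriched by edgeR, CCT6A (adjusted p = 0.00088), CCT8 (0.0158) and CCT2 (0.0480), against 4.60% of all genes, and TCP1 came to 0.0520. None was called depleted there, against 5.08% of all genes. PyDESeq2 called those 3 and TCP1 (adjusted p = 0.0247), against 6.43% of all genes, and gave CCT6A an adjusted p of 0.000111. The replicate number marks the IP and FT of 1 biological replicate, and the 2 replicates limit the precision of every fit.

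**Figure D2:**
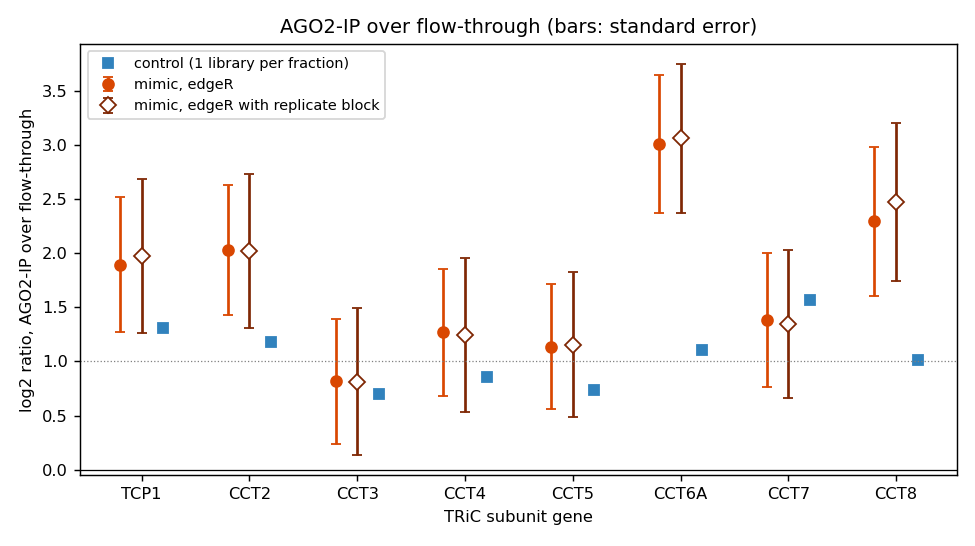
Log2 ratio of IP over FT for each TRiC subunit gene. Circles are edgeR log2 fold changes in the mimic and open diamonds those with the replicate block, both with standard errors as bars; squares are the single control log2 ratios, and the dotted line marks a log2 ratio of 1. CCT6A is highest in the mimic at 3.01, while CCT7 is highest in the control at 1.57.

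The control libraries were used to describe whether the same mRNAs were also more abundant in the IP without the mimic, which they cannot settle. With 1 control library per fraction there was no test. The control fractions were those of the labels. All 8 log2 ratios of control IP over control FT were above 0, as were 50.4% of the 8245 genes compared. A ratio of at least 1 was reached by 5 of the 8 (TCP1, CCT2, CCT6A, CCT7 and CCT8), against 15.9% of all genes. The ratios ran from 0.70 for CCT3 to 1.57 for CCT7, with a median of 1.06 against 0.01 over all genes. When the libraries were scaled by their gene counts alone, the members' median was 1.96 and that of all genes 0.91, so relative to all genes the members' median changed little.

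The 4 differences between a mimic IP and a mimic FT library all exceeded the control ratio for 6 of the 8 genes, and for 32.0% of 8225 genes. The exceptions were CCT3 and CCT7. The mimic log2 fold change minus the control log2 ratio was 1.90 for CCT6A and 1.28 for CCT8. It was 0.85 for CCT2, 0.59 for TCP1, 0.41 for CCT4, 0.40 for CCT5, 0.12 for CCT3 and -0.19 for CCT7. CCT6A and CCT8, whose control ratios of 1.10 and 1.01 lay close to the members' median, thus stood furthest from their control values. The mimic value fell with GC content (Spearman's rho -0.545) and the control ratio did not (0.129). With the GC trend removed from both, mimic and control were 2.44 and 1.16 for CCT6A and 1.77 and 1.15 for CCT8. CCT2 (1.41 and 1.22), CCT3 (0.88 and 0.44) and CCT7 (1.55 and 1.31) were also above their control. TCP1 (1.34 and 1.37), CCT4 (0.63 and 0.88) and CCT5 (0.61 and 0.72) were below it. Whether any of these differences exceeds the spread of the control could not be tested with single control libraries.

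Mimic and control were then set side by side within each fraction. In the IP all 8 genes were above the control in both mimic libraries. The mean ratio was therefore above 0 for all 8, as it was for 50.8% of the genes compared. The mean log2 ratio was 1.91 for CCT6A, 1.64 for CCT2, 1.19 for CCT4 and 1.11 for CCT8, and these 4 were at or above 1, against 17.3% of 11467 genes. This ratio also moved with GC content over 10812 protein-coding genes (Spearman's rho -0.595). With the GC trend removed CCT6A was 1.40, CCT2 1.15, CCT4 0.71, CCT8 0.50 and TCP1, the lowest, 0.07. The median of the 8 was then 0.80, against 0.0004 over all genes, and all 8 were still above 0. Without that removal the lowest was TCP1 at 0.61, and the median of the 8 was 0.97 against 0.02 over all genes. In the FT the mean ratio was above 0 for 7 of the 8, against 52.7% of the genes compared. The mean log2 ratios ran from -0.10 for CCT8 to 1.27 for CCT7, with a median of 0.78 against 0.05 over all genes. CCT8 was 0.06 with the GC trend removed, where the median over all genes was 0.003. With library sizes alone it was 0.37, below the median of 0.52 over all genes. A ratio of at least 1 was found for CCT2 (1.05), CCT4 (1.05) and CCT7, against 10.0% of 12254 genes. TCP1, CCT6A and CCT8 were above the control in mimic FT replicate 1 and below it in replicate 2, by 0.66 and -0.86 for CCT8. The mimic and control libraries also differed in the share of read pairs on genes given above, and mimic and library composition cannot be told apart here.

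**Figure D3:**
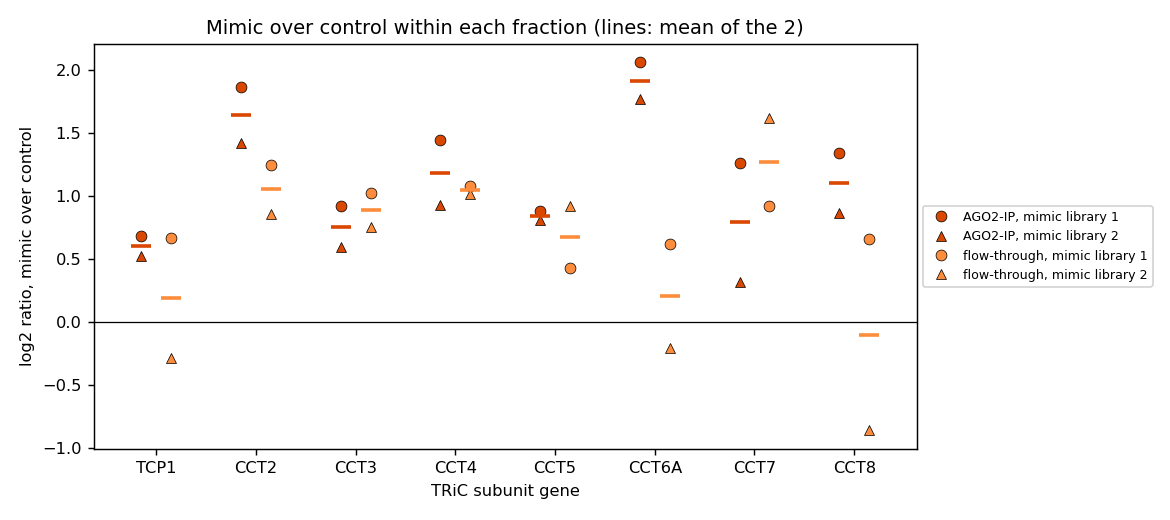
Log2 ratio of mimic over control for each TRiC subunit gene, in the IP (dark) and the FT (light). Circles and triangles are mimic replicates 1 and 2, each against the single control library of the same fraction, and horizontal lines are their means; all dark symbols lie above 0, while the light triangles of TCP1, CCT6A and CCT8 lie below it.

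Levels were compared between the subunit genes per kilobase of canonical transcript (RPKM, which is CPM divided by that length). Within a library the highest member exceeded the lowest by 2.73-fold in mimic FT replicate 1 and by 8.37-fold in mimic FT replicate 2. The other 4 libraries lay between 3.05-fold and 5.02-fold. CCT7 had the highest RPKM in 5 libraries, up to 677, and CCT6A in mimic IP replicate 2, with 509. CCT4 had the lowest RPKM in 5 libraries, down to 17.98 in the control FT, and CCT8 in mimic FT replicate 2, with 23.3. The lowest place depends on the length used, since with the length of all annotated exons CCT2 had the smallest share in both controls, at 5.33% and 5.69%. On that length CCT6A had the largest share in both mimic IP libraries, at 26.7% and 29.3%. The lowest place also depends on how strands were counted. These counts ignore strand and leave out pairs in bases shared with a gene on the opposite strand. Counted on either strand by itself, CCT4 had 222 and 240 counts in the control FT, against 332 here. CCT2 had 143 and 160, against 303, and was below CCT4 per length on either strand.

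In the mimic IP the order by mean share of the summed RPKM was CCT6A (23.9%), CCT7 (20.1%), CCT8 (11.1%), CCT2 (10.1%), TCP1 (9.98%), CCT3 (9.78%), CCT5 (9.77%) and CCT4 (5.20%). CCT6A and CCT7 overlapped between replicates, as did each neighbouring pair from CCT2 to CCT5, whereas CCT4 lay below the rest. With the length of all annotated exons CCT4 was not lowest in mimic IP replicate 1, at 8.23% against 7.60% for TCP1 and 8.03% for CCT2. The size of the gap below CCT4's neighbours also depends on how strands were counted. In that library CCT4 had 16981 counts against 24823 for CCT3. Counted on either strand by itself, CCT4 had 15282 and 13297, against 13493 and 11333 for CCT3. In the mimic FT the order was CCT7 (26.4%), CCT3 (18.2%), CCT5 (14.5%), CCT6A (9.62%), TCP1 (8.62%), CCT2 (8.16%), CCT8 (7.37%) and CCT4 (7.15%). There CCT7 did not overlap CCT3, and every neighbouring pair below CCT7 overlapped. CCT6A made up 22.7% and 25.1% of the summed RPKM in the mimic IP, against 12.02% and 7.22% in the mimic FT. It made up 13.7% of either control fraction. CCT3, CCT4 and CCT5 had larger shares in the mimic FT, where CCT3 had 19.2% and 17.1% against 9.39% and 10.2% in the mimic IP. The complex uses its subunits in equal amounts, whereas the counts per length of their mRNAs were unequal in every library. Between the mimic fractions the shares of TCP1 and CCT7 overlapped, and those of all other subunit genes did not. CCT2, CCT6A and CCT8 had the larger share in the IP, and CCT3, CCT4 and CCT5 in the FT. No library was of input RNA, so the proportions in the whole cell were not measured. The shares were not corrected for GC content, along which the mimic FT replicates differed, or for pairs left out in bases shared with other genes.

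**Figure D4:**
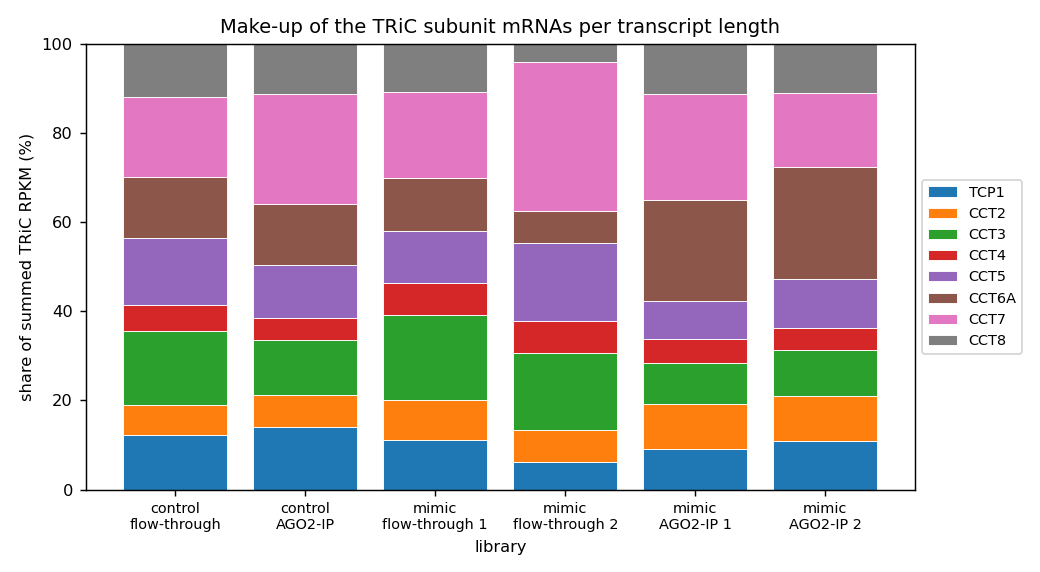
Share of the summed RPKM of the 8 TRiC subunit genes that each gene holds, in percent, for the 6 libraries; each bar adds up to all of it. The CCT6A segment is 22.7% and 25.1% in the mimic IP libraries and at most 13.7% in the others, and the CCT8 segment is thinnest in mimic FT replicate 2.

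GC content moved with the comparison of the mimic fractions. Across 11747 protein-coding genes the log2 fold change had a Spearman's rho of -0.545 with the GC content of the canonical transcript, and genes are not independent replicates. TCP1, CCT2, CCT4, CCT5, CCT6A and CCT8 have transcripts of 41.5% to 44.5% GC, and CCT3 and CCT7, of which CCT3 had the smallest fold change, have 50.6% and 51.6%. In a window from 41% to 45% GC, set after the values were seen, 2009 genes had a median log2 fold change of 0.57, with quartiles of -0.23 and 1.28. The 6 subunit genes in it had a median of 1.96. In a window from 50% to 52%, the median was 0.02 for 697 genes and 1.10 for CCT3 and CCT7. With the GC trend removed from each library the members' log2 fold changes ran from 0.61 for CCT5 to 2.44 for CCT6A, with a median of 1.38, and CCT6A was called (adjusted p = 0.0292, edgeR), against 3.29% of all genes. In the same fit CCT3 (0.88) came above CCT4 (0.63) and CCT5 (0.61). With the replicate block and the GC trend removed together, TCP1, CCT2, CCT6A, CCT7 and CCT8 were called, against 14.0% of all genes.

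**Figure D5:**
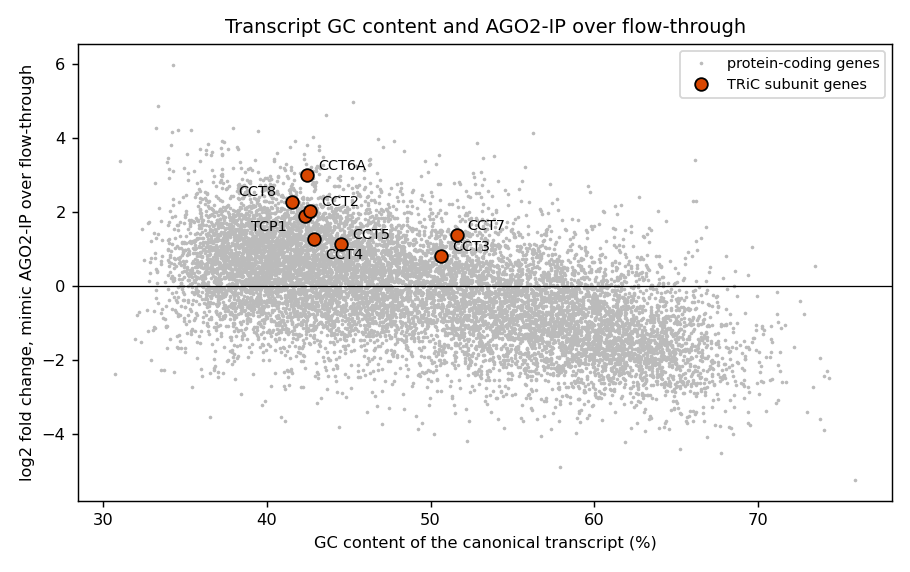
GC content of the canonical transcript (horizontal, in percent) against the edgeR log2 fold change of mimic IP over mimic FT (vertical) for 11747 protein-coding genes in grey, with the 8 TRiC subunit genes in orange. The grey cloud falls from left to right (Spearman's rho of -0.545), and all 8 subunit genes lie above 0, CCT6A highest at 3.01.

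Several of the genes have close copies or overlapping neighbours that bear on their counts. The annotation lists 14 pseudogenes of the 8 genes, of which 12 had counts. They summed to between 34 and 315 counts in a library, equal to 0.0891% to 0.624% of the counts of their parents. The pair that passed the minimum, CCT6P1 (log2 fold change 0.19) and CCT8P1 (1.69), did not pass the test. Reads that fit a gene and its copy equally were left out of the counts, so the levels of the parents are lower bounds in that respect. TCP1 shares 454 exon bases on the opposite strand with ACAT2, which encodes an acetyl-CoA acetyltransferase, and these are 9.30% of its exon bases. The mimic log2 fold change was 0.74 for ACAT2 and 1.89 for TCP1, and neither passed the test. CCT5 shares 1734 bases, 30.8% of its exon bases, with a long noncoding RNA on the opposite strand that had at most 5 counts in any library. CCT4 shares 275 exon bases (10.2%) and 181 (6.70%) with long noncoding RNAs on the opposite strand. It had 16981 counts in mimic IP replicate 1, against 15282 and 13297 when each strand was counted by itself. In that library CCT5 had 37557 against 26129 and 20795, and TCP1 had 28349 against 18520 and 15414. CCT8, which shares 85 exon bases (2.54%) with another such RNA, had 27966 against 17808 and 14600. The libraries do not separate the strands, so reads in such shared bases cannot be assigned.

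Other genes of the chaperonin family and of the TRiC pathway were called in both directions. The chaperonin relatives CCT6B, MKKS, BBS10 and BBS12, the last 3 of which assemble the ciliary BBSome, had log2 fold changes of 0.68 to 1.78 and none was called by edgeR, with or without the replicate block, or by PyDESeq2, and none had an unadjusted p under 0.05. HSPD1, the mitochondrial HSP60 chaperonin, was called enriched. It had 2233 and 4283 CPM in the mimic IP and 245 and 182 CPM in the mimic FT, with a log2 fold change of 3.92 (adjusted p = 0.0383, edgeR) and a control log2 ratio of 1.83. Its cochaperonin HSPE1 was not called, at -1.11, and its counts are uncertain because the genome holds near-identical copies.

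Of the 6 prefoldin genes 5 were tested, and PFDN1 was called depleted from the IP, at a log2 fold change of -3.86 (adjusted p = 0.0383, edgeR). PFDN1 had 6.89 and 8.92 CPM in the mimic IP against 97.9 and 119 CPM in the mimic FT, and 16.0 against 77.5 CPM in the controls. With the replicate block PFDN4 was called depleted too, at -2.35 (adjusted p = 0.0361), while PFDN2 and VBP1, at 1.37 and 1.57 in that fit, were not called in either fit. The edgeR fit with the block called 4.60% of all genes enriched and 5.08% depleted. The 3 prefoldin-like genes, URI1, UXT and PDRG1, were not called in either fit or by PyDESeq2, and none had an unadjusted p under 0.05. Among the 3 phosducin-like cofactors, none was called without the block, although all 3 had an unadjusted p under 0.05 and PyDESeq2 called all 3. Over all genes tested, 10.6% were higher and 13.1% lower with an unadjusted p under 0.05, and PyDESeq2 called 6.43% enriched and 8.24% depleted. With the block PDCL3 (log2 fold change 2.37, adjusted p = 0.0260) and PDCL (2.26, adjusted p = 0.0358) were called enriched and TXNDC9 (-2.45, adjusted p = 0.0257) depleted. Of the 5 tubulin folding cofactors 4 were tested, and none was called in either fit or by PyDESeq2, or had an unadjusted p under 0.05.

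The 20 substrate genes, which included actins, tubulins, WD40 proteins and other known clients, were called in neither direction by edgeR. Before the adjustment 1 of them had p under 0.05 and was higher in the IP, against 10.6% of all genes, and 5 were lower, against 13.1%. PyDESeq2 called 1 enriched, against 6.43% of all genes, and 4 depleted, against 8.24%. Their median log2 fold change was -0.92, and 3 of the 20 were above 0, whereas the 8 subunit genes were all above 0. With the replicate block, GNB2 (-3.45, adjusted p = 0.000805), MLST8 (-2.94, adjusted p = 0.00623) and TUBA1B (-2.13, adjusted p = 0.0340) were called depleted. GNB2 and MLST8 encode WD40 proteins, a G protein beta subunit and a subunit of the mTOR complexes, and TUBA1B encodes an alpha tubulin. CCNE1, which encodes cyclin E1, was called enriched with the block (2.69, adjusted p = 0.0127). The block thus called 1 of the 20 enriched, against 4.60% of all genes, and 3 depleted, against 5.08%. In the controls 7 of the 20 had log2 ratios above 0, with a median of -0.32. The median GC content of these transcripts was 54.9%, against 42.8% for the subunit genes. With the GC trend removed the median log2 fold change of the 20 was -0.52, with 7 of the 20 above 0, against 1.38 for the subunit genes. Counts of actin and tubulin genes are uncertain because their paralogs share long stretches of sequence.

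The 5 protein-coding genes whose levels over the 6 libraries were most like the mean of the 8 subunit genes were EPRS1, SMU1, CHD8, TAF1 and H3-3B, out of 11890. Likeness was the root-mean-square difference of log2 CPM, each gene centred on its own mean, and it ran from 0.131 for EPRS1 to 0.156 for H3-3B. The members themselves lay at 0.248 (CCT2) to 0.556 (CCT6A) from their own mean. Against the 11890 other genes that ranked CCT2 at 54 and CCT6A, the furthest member, at 1290. The 5 genes were picked as the closest and the members form the mean, so neither distance is a result about the members. EPRS1 had a mimic log2 fold change of 1.93 and a control log2 ratio of 0.96, and none of the 5 passed the test. The pattern is over 6 libraries that share fractions and transfections, and it is a description only.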

How the data were processed

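AGO2-RIP-seq libraries of MDA-MB-231 cells were analysed from the counts per gene that the authors deposited. Fractions and transfections came from the sample labels; the study's supplement lists both control libraries as control replicates and names no fraction. The authors checked paired-end reads with FastQC 0.11.9, trimmed them with Cutadapt 3.5 and aligned them to GRCh38 with STAR 2.7.11b in its two-pass mode, which counted uniquely mapped pairs on single genes; the annotation release is not given in the sources used here. The unstranded column was used, and the 2 stranded columns as alternatives. Rows naming no gene (21.4% to 95.03% of pairs) were left out.

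Of 60708 identifiers, 60463 were named from GENCODE 44. Counts on genes per library ran from 7772149 to 48544756, and intervals are 95% Wilson intervals of counting error. CPM are counts scaled to a library total of 1000000 gene counts. The mimic fractions (2 against 2) were compared with edgeR 4.0.16 (R 4.3.3; TMM, quasi-likelihood; tested on simulated data) over genes whose counts summed to 200 or more; calls needed a log2 fold change of 1 or more in size and a Benjamini-Hochberg adjusted p no higher than 0.05. PyDESeq2 0.5.4 was an alternative. The standard error is the log2 fold change divided by the square root of F. Comparisons with single control libraries are log2 ratios of TMM-normalized CPM with a prior count of 2 and no p. GC trends were removed per library by lowess with a span of 0.2.

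By the labels an IP and an FT carry the same biological replicate number, which pairs them; across genes, same-numbered libraries deviated together from their groups (Pearson's r 0.324, Spearman's rho 0.236). The members and gene lists were chosen with earlier results of these data known. The text names all 8 members, up to 4 examples per gene list beside those a count needs, and the 5 genes most like the members. The p-values measure the spread between these libraries.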

Additional observations from a re-analysis of the deposited data

How the results depend on the processing

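Over 16 other settings of the mimic comparison, 0 to 5 of the 8 subunit genes were called enriched and 0 depleted, and each gene kept a log2 fold change above 0. None of the 8 was called with DESeq2 size factors (0.0994% of all genes were called enriched), library sizes alone (0.0688%), the stranded columns (0.0722% and 0.0146%), all 6 libraries in 1 fit (0.168%) or protein-coding genes alone (0 of 11747), settings that called few genes of any kind. There were 4 calls by PyDESeq2, 2 with no count minimum (0.960% of all genes), 1 with 200 counts in every library (2.44%) and 1 with the GC trend removed. The replicate block gave 3 calls, and the block with the GC trend removed gave 5; it changed no depleted count. Leaving out 1 library gave 0 to 4 calls, and the lone library left was assumed to vary like the other group: 4 without mimic FT replicate 1 (TCP1, CCT2, CCT6A and CCT8; 20.2% of all genes), 1 without its replicate 2 (CCT6A; 1.90%) and 0 without IP replicate 1 (0.103%) or 2 (0.0157%). CCT6A was called under 8 of the 16 settings, with adjusted p from 0.000111 to 0.528. The members' median log2 fold change stayed between 1.38 and 2.02, the highest with no count minimum. Over all genes, calls enriched and depleted were 32 and 54 without the block, 601 and 664 with it.

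The median control log2 ratio of IP over FT was 1.96 with library sizes alone, 1.15 with 200 counts in every library, 0.960 and 0.963 in the stranded columns and 1.15 with the GC trend removed. The median of mimic over control FT was 1.25 with library sizes alone (0.52 over all genes), 0.649 without mitochondrially encoded genes, 0.865 with 200 counts in every library, 0.763 in stranded column 3, 0.717 with the GC trend removed and 0.631 to 0.711 with 1 mimic library left out. The median of mimic over control IP ran from 0.80 to 1.27. The causes were not tested. The lowest count of a subunit gene in any library was 303.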
